A study of Mus musculus with 6 samples.

Results

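The genes described here encode the enzymes, transporters and regulators of fatty acid oxidation in mitochondria and peroxisomes. They were chosen by gene symbol from a list of 33, and all 33 were found among the 45193 Ensembl genes of the count table. By textbook location, 17 act in mitochondria, 12 in peroxisomes and 3 (Crat, Ech1 and Eci2) in both organelles, and Ppargc1b encodes a nuclear coactivator. Of these, 32 entered the test, and Pdk4 had too few reads.

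RNA was sequenced from macrophages that were differentiated out of mouse bone marrow over 6 days in L929-conditioned medium, a source of the growth factor CSF-1. WT cells (3 libraries) were of the C57BL/6J strain. Knockout cells (3 libraries), also labelled C57BL/6J, carried the genotype RXRafl/flLysMCre RXRb-/-, in which Cre expressed from the lysozyme M locus acts on loxP-flanked Rxra alleles and Rxrb is inactivated in every cell. All 6 libraries came from cells kept in serum-free medium with the solvent DMSO for 3 hours, so no receptor ligand or inflammatory stimulus was added. The number of animals behind each library is not given in the labels, so the tests speak only of the spread among these 6 libraries.

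Fatty acid oxidation shortens fatty acids by 2 carbons a round. In mitochondria, long chains enter through the carnitine shuttle and pass through an acyl-CoA dehydrogenase, a hydratase, a second dehydrogenase and a thiolase, and the electrons go to the respiratory chain by way of the electron transfer flavoprotein. Peroxisomes take very long and branched chains through ABC transporters, start each round with an oxidase that makes hydrogen peroxide, and hand the shortened chains on. Many of these genes are classical targets of PPAR receptors, which bind DNA as heterodimers with RXR at direct repeats of AGGTCA separated by 1 base.

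Libraries held 7880320 to 25091019 counts, on average 1.87 times as many in knockout as in WT cells. Correlations of log2 CPM were 0.985 to 0.994 within a genotype and 0.968 to 0.979 between genotypes. Rxrb fell from 66.7 ± 1.86 to 9.27 ± 2.09 CPM (CPM, counts scaled to the TMM-adjusted library size, SD, n = 3), while Rxra, whose count over the whole gene does not test removal of the floxed part, stood at 104 ± 6.70 and 109 ± 4.83 CPM. Lyz2, at the Cre locus, fell from 15258 ± 594 to 28.4 ± 6.12 CPM. Xist had no reads in WT and 209 to 267 CPM in knockout cells. The Y-linked gene Ddx3y stood at 101 to 112 CPM in WT and 49.7 to 55.4 CPM in knockout cells. Genotype and the sex of the cells therefore cannot be told apart. Every knockout library held reads of both genes, at similar levels. Whether these libraries were drawn from a shared pool of male and female cells is not given in the labels and was not tested. Their spread may therefore not be that among animals. Macrophage markers were abundant in all libraries (summed level of 9 genes 7087 to 8094 CPM in WT and 7894 to 9055 CPM in knockout cells); among them Cd14, Itgam and Csf1r rose (log2 fold changes 1.08, 0.65 and 0.39) and Fcgr1 (-0.37) fell, a call lost without WT replicate 1 or knockout replicate 3 (adjusted p of up to 0.111). Markers of B and T cells summed to at most 1.11 CPM in any library, with Cd3e the most abundant. Markers of adipocytes and stromal cells summed to at most 10.3 CPM, with Col1a1 the most abundant at 3.85 ± 0.966 and 3.14 ± 2.48 CPM. Neutrophil markers summed to 1091 to 1236 CPM in WT and 994 to 1106 CPM in knockout cells, with Ngp the most abundant. Of the 10 neutrophil markers, Elane (-1.10), Mpo (-0.88), Prtn3 (-0.83) and Ngp (-0.27) fell, 0 rose and 6 did not pass (40% lower, against 9.61% of all tested genes). The Ngp call was lost without any library but WT replicate 3 (adjusted p of up to 0.243 over all alternatives). The part of these cells in the results below was not tested. In bulk RNA, fewer cells of a type and less RNA per cell cannot be told apart.

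Hadha and Hadhb, which encode the subunits of the mitochondrial trifunctional protein, both fell in the knockout and are shown first because they lie head to head on chromosome 5 and share a promoter region. In the GRCm38 annotation Hadha spans chr5:30118304-30155162 on the minus strand and Hadhb spans chr5:30155248-30184593 on the plus strand. RefSeq's GRCm38.p6 start sites lie 273 bases apart, and the 300-base promoter windows share 228 bases, read in opposite directions. In the windows below, 5′ to 3′ on each gene's own strand, lower case is the 250 bases before the start site and capitals are the first 50 transcribed bases. The Hadha window is chr5:30154931-30155230 and the Hadhb window is chr5:30155003-30155302.
Hadha: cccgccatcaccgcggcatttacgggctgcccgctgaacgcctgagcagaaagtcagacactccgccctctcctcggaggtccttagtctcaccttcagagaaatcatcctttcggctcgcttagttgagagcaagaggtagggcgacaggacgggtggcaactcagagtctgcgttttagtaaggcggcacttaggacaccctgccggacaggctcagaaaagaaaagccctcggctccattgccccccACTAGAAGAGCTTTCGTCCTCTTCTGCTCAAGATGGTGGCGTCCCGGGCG
Hadhb: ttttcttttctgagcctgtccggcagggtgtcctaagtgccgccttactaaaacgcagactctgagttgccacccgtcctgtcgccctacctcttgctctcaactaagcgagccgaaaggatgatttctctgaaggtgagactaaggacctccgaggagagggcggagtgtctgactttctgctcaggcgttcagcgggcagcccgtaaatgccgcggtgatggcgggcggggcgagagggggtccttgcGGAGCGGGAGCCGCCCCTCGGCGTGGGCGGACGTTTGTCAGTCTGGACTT

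The promoter windows of the members were searched on both strands for AGGTCA repeated after any 1 base (13 bases), the element bound by PPAR and RXR. Windows were found for 27 members; Acaa2, Decr1, Crat, Ppargc1b, Hsd17b4 and Abcd2 were not matched. An exact match stood in 0 of the 27, against 0.0481% of all 27025 genes with RefSeq promoter windows, and a match with up to 1 mismatch also in 0, against 0.644%. With up to 2 mismatches the element stood in 2 members, Echs1 and Etfa, against 4.4% of those genes (3.86% of all 32851 windows). Both sites are printed in capitals within their 41-base surroundings, on the gene's strand, as the closest matches among the members; neither gene passed the test of expression. The Echs1 window is chr7:140116478-140116518, with the site 83 to 71 bases before the start, and the Etfa window is chr9:55512294-55512334, with the site 77 to 65 bases before the start and the element on the opposite strand. Both genes lie on the minus strand.
Echs1: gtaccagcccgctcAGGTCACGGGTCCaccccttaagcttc
Etfa: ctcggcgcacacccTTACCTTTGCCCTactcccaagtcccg
These matches are descriptions of letters, and the windows of Hadha and Hadhb had no site within 2 mismatches, which says only that these letters are not there.

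The listed members were lower in the knockout more often than they were higher. The list was chosen with earlier results of these data known. Of the tested genes of the pathway outside it, 9.52% were called lower. Of the 32 tested members 13 fell, 1 rose and 18 did not pass (edgeR quasi-likelihood, Benjamini-Hochberg adjusted over 12011 genes), that is 40.6% lower and 3.12% higher, where 9.61% of all tested genes were called lower and 9.77% higher. Their median log2 fold change was -0.21, against -0.0048 for all tested genes. All 3 knockout libraries lay below all 3 WT libraries in 14 members and above them in 3, against 17.9% and 19.0% of all tested genes (36.9% in either direction). Among the 14 was Acads, which did not pass the test, and among the 3 were Cpt2 and Hadh, which did not pass either. After thinning every library to the smallest total the same 13 members fell. The count of members that rose was 0 without WT replicate 1 or without knockout replicate 2, and 2 without knockout replicate 3.

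**Figure D1:**
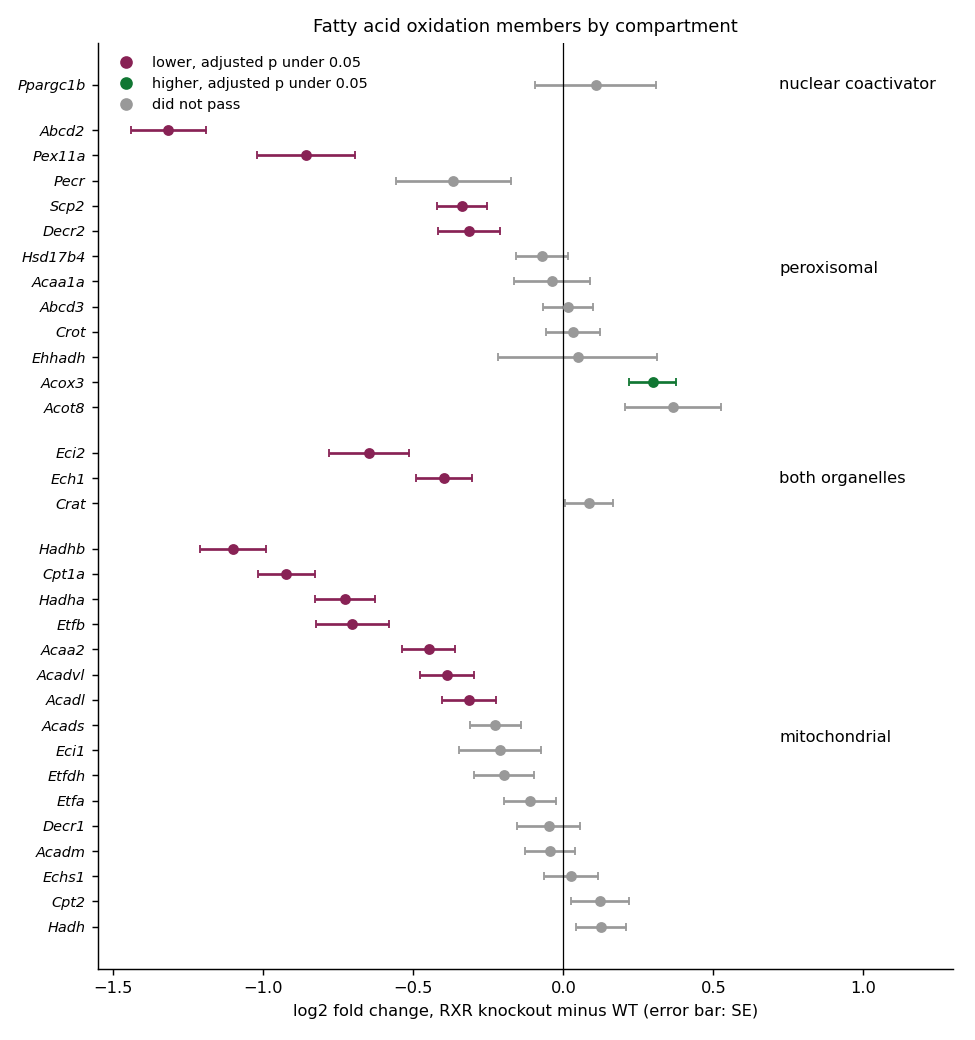
Log2 fold change (knockout minus WT, horizontal axis) of the 32 tested members, grouped by compartment, with SE as error bars and colour for the edgeR call at an adjusted p of 0.05. Purple points (13) lie left of 0, from Abcd2 at -1.32 to Acadl at -0.31, and the single green point is Acox3 at 0.30.

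The mitochondrial members carried the larger drop in summed level. Among 16 tested, 7 fell (Cpt1a, Hadha, Hadhb, Etfb, Acaa2, Acadvl and Acadl), 0 rose and 9 did not pass, with a median log2 fold change of -0.22. Of 12 peroxisomal members, 4 fell (Abcd2, Pex11a, Scp2 and Decr2), Acox3 rose and 7 did not pass, with a median of -0.05. Called lower were thus 43.8% of the mitochondrial and 33.3% of the peroxisomal members, against 9.61% of all tested genes. Called higher were 0% and 8.33%, against 9.77%. By share called lower, both compartments stood above all tested genes. The peroxisomal count of falls was 2 without knockout replicate 1 or without knockout replicate 2. The peroxisomal median was -0.089 without WT replicate 1, -0.14 without WT replicate 3, -0.015 without knockout replicate 2 and -0.13 without knockout replicate 3.

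Summed over its 17 genes, the mitochondrial set stood at 1359, 1320 and 1313 CPM in WT replicates 1 to 3 and at 1008, 1010 and 980 CPM in knockout cells replicates, a mean of 1331 ± 24.7 against 999 ± 16.9 CPM (SD, n = 3), 24.9% lower. The peroxisomal sum was 741, 811 and 730 CPM in WT and 713, 724 and 767 CPM in knockout cells, a mean of 761 ± 43.8 against 735 ± 28.8 CPM, and the libraries of the genotypes overlapped. Cpt1a, Hadha, Hadhb and Etfb, picked out after their values were seen, made up 78.0% of the mitochondrial difference. The other 13 mitochondrial genes summed to 739 ± 27.8 CPM in WT and 666 ± 9.51 CPM in knockout cells, still with every knockout library below every WT library. Sums in CPM weight long and abundant transcripts more than short and rare ones.

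**Figure D2:**
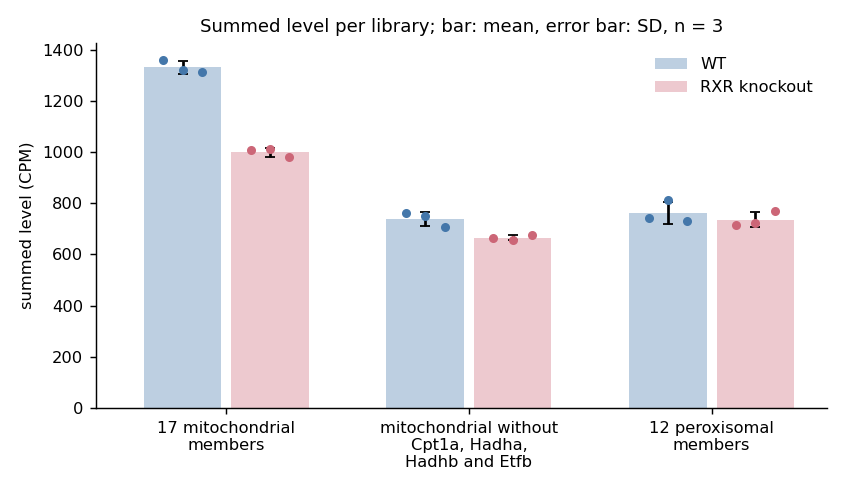
Summed level in CPM (vertical axis) for each library (points), with group means as bars and SD as error bars (n = 3), for the 17 mitochondrial members, the same set without Cpt1a, Hadha, Hadhb and Etfb, and the 12 peroxisomal members. WT and knockout points stand apart in the first and second pair of bars and overlap in the third.

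In each library, the median deviation of the tested members from their WT mean log2 level was also taken (0.5 CPM added before the log). For mitochondrial members it was 0.035, 0.028 and -0.034 in WT replicates 1 to 3 and -0.25, -0.22 and -0.24 in the knockout replicates. For peroxisomal members it was -0.012, -0.0063 and 0.023 in WT and -0.11, -0.14 and -0.014 in the knockout. The highest peroxisomal value in the knockout (-0.014) lay just below the lowest in WT (-0.012). The mitochondrial minus the peroxisomal median lay between -0.057 and 0.047 in WT and between -0.23 and -0.085 in the knockout, with no overlap. Deviations were taken from the WT mean, so WT values lie close to it by construction, which favours a lack of overlap. Members are not replicates of a compartment, so the difference between the compartments was described and not tested.

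The carnitine shuttle showed a change at its entry step. Cpt1a (ENSMUSG00000024900, chr19:3322334-3385733) encodes the outer-membrane carnitine palmitoyltransferase that controls how fast long chains enter mitochondria. Its level was 223, 204 and 242 CPM in WT replicates 1 to 3 and 120, 129 and 105 CPM in knockout cells replicates. Every knockout library lay well below the lowest WT library, and the fall was -0.92 on the log2 scale (SE 0.0961, adjusted p = 2.90e-05). Cpt2, which encodes the inner-membrane enzyme that turns acylcarnitine back into acyl-CoA, stood at 26.7, 29.5 and 29.6 CPM in WT and 31.4, 31.4 and 30.6 CPM in knockout cells. The knockout values were all slightly above the WT values, but the difference did not pass (0.12, SE 0.0973, adjusted p = 0.416). Crat, the short-chain carnitine acetyltransferase of both organelles, also did not pass (0.09, adjusted p = 0.494) and lies 2.64 Mb from Rxra, in a region that may carry flanking DNA of the modified allele.

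The log2 ratio of Cpt1a to Cpt2 was 3.06, 2.79 and 3.03 in WT and 1.93, 2.03 and 1.78 in the knockout, a difference of -1.05. This was 1 of 4 ratios of partner genes compared, picked with earlier results of these data known. In each, the gene placed on top was the partner with the lower fold change. Lower ratios in the knockout therefore restate those fold changes and are no separate support. In all 4 the genotypes did not overlap, and each gave a two-sided exact permutation p = 0.1 (Benjamini-Hochberg 0.1), the smallest that 3 against 3 libraries allow.

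**Figure D3:**
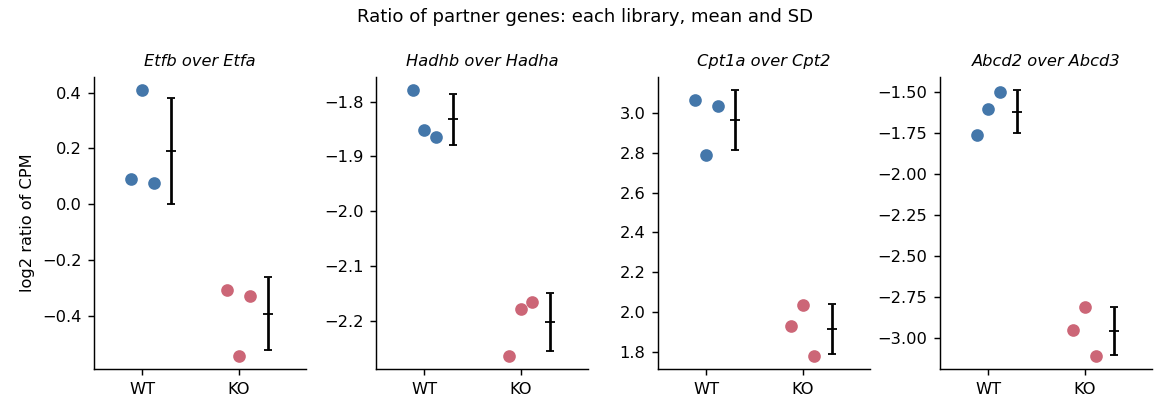
Log2 ratio of CPM (vertical axis, a separate range in each panel) for 4 pairs of partner genes, with each library as a point and the mean and SD beside it (n = 3). In each panel the 3 knockout points lie below the 3 WT points, with differences in mean from -0.37 for Hadhb over Hadha to -1.34 for Abcd2 over Abcd3.

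Acyl-CoA dehydrogenases open each mitochondrial round, and their genes differ by the chain length they prefer. Acadvl, for very long chains (chr11:70010183-70015411), stood at 52.5, 48.9 and 49.4 CPM in WT and 40.5, 37.0 and 37.8 CPM in knockout cells (-0.39, SE 0.0897, adjusted p = 0.00907), with all knockout libraries below WT. Opposite-strand exons of Dvl2 overlap 42.9% of the annotated exon bases of Acadvl, and strand use is not given in the sources used here, so the Acadvl value is uncertain; Dvl2 itself went from 32.3 ± 2.31 to 34.4 ± 0.867 CPM and did not pass (0.09, adjusted p = 0.542). Acadl, for long chains, stood at 114, 98.1 and 106 CPM in WT and 86.8, 90.8 and 77.8 CPM in knockout cells (-0.31, SE 0.0911, adjusted p = 0.0292). The gap between its groups was small, and the call was lost without WT replicate 1, knockout replicate 1 or knockout replicate 3, with adjusted p of up to 0.187 over all alternatives.

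Acads, for short chains, was at 52.3 to 54.7 CPM in WT and 45.6 to 46.7 CPM in knockout cells. Its groups did not overlap, but the change did not pass (-0.23, SE 0.0837, adjusted p = 0.0778). Acadm, for medium chains, overlapped between the genotypes (114 ± 3.18 and 110 ± 7.96 CPM, -0.04, adjusted p = 0.757).

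The trifunctional protein performs the last 3 steps on long chains. Hadha (ENSMUSG00000025745), the subunit with hydratase and dehydrogenase activity, had levels of 213, 191 and 218 CPM in WT and 132, 136 and 107 CPM in knockout cells (-0.73, SE 0.100, adjusted p = 2.74e-04). Hadhb (ENSMUSG00000059447), the thiolase subunit, had 62.2, 53.0 and 59.9 CPM in WT and 27.6, 30.1 and 23.9 CPM in knockout cells (-1.10, SE 0.109, adjusted p = 1.97e-05). In both genes the highest knockout library lay well below the lowest WT library, and knockout replicate 3 was the lowest of all 6. The ratio of Hadhb to Hadha CPM was 0.291, 0.277 and 0.275 in WT and 0.208, 0.221 and 0.223 in the knockout, lower in every knockout library than in any WT library. Reads of Hadhb can be shared with its processed pseudogene Gm13910, which holds a 1428-base stretch 99.8% identical to it, but Gm13910 had only 16 reads over the WT libraries and 22 over the knockout libraries, against 1923 and 1673 for Hadhb.

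Short and medium chains use separate enzymes. Acaa2, the mitochondrial 3-ketoacyl-CoA thiolase, stood at 77.0, 71.3 and 66.2 CPM in WT and 53.3, 52.7 and 50.8 CPM in knockout cells, with no overlap (-0.45, SE 0.0886, adjusted p = 0.00346). The hydratase gene Echs1 (61.4 ± 3.68 and 62.4 ± 4.31 CPM, 0.03, adjusted p = 0.880) and the dehydrogenase gene Hadh (54.2 ± 1.05 and 59.2 ± 2.08 CPM, 0.13, adjusted p = 0.326) did not pass. Grouped after their values were seen, 5 of the 6 genes for long chains fell (Cpt1a, Acadvl, Acadl, Hadha and Hadhb, but not Cpt2), and 1 of the 5 genes for medium and short chains fell (Acaa2). These are shares of 83.3% and 20%, where 9.61% of all tested genes were called lower. The medians were -0.56 and -0.04, and the difference between these groups was not tested.

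Enzymes that prepare unsaturated chains for oxidation were lower where they changed. Ech1, a dienoyl-CoA isomerase, stood at 99.2, 80.9 and 89.6 CPM in WT and 69.0, 71.6 and 64.1 CPM in knockout cells (-0.40, SE 0.0946, adjusted p = 0.0106), a call lost without WT replicate 1 (adjusted p = 0.0587). Eci2, an enoyl-CoA isomerase, stood at 35.4, 27.1 and 30.4 CPM in WT and 20.5, 22.1 and 16.7 CPM in knockout cells (-0.65, SE 0.134, adjusted p = 0.00463). Neither gene's groups overlapped, and WT replicate 1 was the highest library for both. The mitochondrial isomerase gene Eci1 (20.8 ± 3.66 and 17.7 ± 1.22 CPM, -0.21, adjusted p = 0.310) and the dienoyl-CoA reductase gene Decr1 (34.8 ± 3.94 and 33.4 ± 0.886 CPM, -0.05, adjusted p = 0.792) did not pass. Decr2, the peroxisomal counterpart of Decr1, stood at 29.4, 32.1 and 33.4 CPM in WT and 23.8, 26.4 and 26.1 CPM in knockout cells (-0.32, SE 0.103, adjusted p = 0.0478). Its groups did not overlap, yet leaving out any single library removed the call, as did DESeq2 (adjusted p of up to 0.205 over all alternatives). Decr2 lies 7.94 Mb and Eci1 lies 9.59 Mb from Rxrb on chromosome 17.

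The electron transfer flavoprotein is a dimer of the products of Etfa and Etfb and passes electrons to the dehydrogenase encoded by Etfdh. Etfb (chr7:43444083-43457800) stood at 101, 123 and 85.8 CPM in WT and 65.0, 57.1 and 67.2 CPM in knockout cells (-0.70, SE 0.122, adjusted p = 0.00144). WT libraries were widely spread, but the lowest of them lay above all knockout libraries. Etfa stood at 89.5 ± 7.0 and 82.7 ± 2.04 CPM (-0.11, adjusted p = 0.402) and Etfdh at 53.7 ± 5.02 and 46.7 ± 3.50 CPM (-0.20, adjusted p = 0.191), and both overlapped between the genotypes. The log2 ratio of Etfb to Etfa was 0.089, 0.41 and 0.074 in WT and -0.31, -0.54 and -0.33 in the knockout, with no overlap. The predicted gene Gm45233, on the same strand, shares 53.0% of the exon bases of Etfb. Gm45233 has no row in the deposited counts, so none of the counted reads were assigned to it. The annotation used in counting is not given, so whether reads were set aside for this overlap is not known.

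Transport into peroxisomes differed between its genes. Abcd2 (ENSMUSG00000055782, chr15:91145871-91191799) encodes an ABC transporter for very long and polyunsaturated acyl-CoA. Its level was 22.0, 22.7 and 24.6 CPM in WT and 9.65, 10.04 and 8.09 CPM in knockout cells, 40.1% of the WT mean and the lowest fold change of any member (-1.32, SE 0.126, adjusted p = 1.44e-05). The highest knockout library was far below the lowest WT library. Abcd3, which encodes the abundant peroxisomal membrane transporter for branched and long chains, stood at 74.5, 68.9 and 69.4 CPM in WT and 74.7, 70.7 and 69.9 CPM in knockout cells and did not pass (0.02, adjusted p = 0.918). The log2 ratio of Abcd2 to Abcd3 was -1.76, -1.60 and -1.50 in WT and -2.95, -2.81 and -3.11 in the knockout.

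Core enzymes of peroxisomal oxidation mostly did not pass. Acox3, an acyl-CoA oxidase of branched chains, was the member that rose, from 112, 118 and 122 CPM in WT to 137, 151 and 145 CPM in knockout cells at chr5:35583040-35615352 (0.30, SE 0.0791, adjusted p = 0.0194). Its groups did not overlap, but the call was lost without WT replicate 1 and without knockout replicate 2. It was also lost when annotated exon length and GC content were entered as offsets, which lowered the change to 0.10 (adjusted p = 0.384). Scp2, which encodes a thiolase and sterol carrier protein, stood at 89.6, 94.0 and 85.9 CPM in WT and 68.7, 69.9 and 74.5 CPM in knockout cells (-0.34, SE 0.0828, adjusted p = 0.0125), and its call was lost without knockout replicate 1 or 2. Its near-identical pseudogene Scp2-ps2 had 36 reads over all libraries. The multifunctional enzyme gene Hsd17b4 (206 ± 15.8 and 196 ± 14.9 CPM, -0.07, adjusted p = 0.621) and the thiolase gene Acaa1a (142 ± 28.6 and 137 ± 14.6 CPM, -0.04, adjusted p = 0.871) overlapped between the genotypes. Acaa1a shares sequence with Acaa1b, which had 3 reads in WT and 8 in the knockout, and exon bases with Myd88 on the other strand. Ehhadh, the other multifunctional enzyme gene, was scarce at 2.65 ± 0.850 and 2.82 ± 0.339 CPM and did not pass (0.05, SE 0.265, adjusted p = 0.925).

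Genes for the release of shortened chains did not pass, and neither did the reductase gene Pecr. Crot, the carnitine octanoyltransferase, stood at 49.1 ± 3.39 and 50.3 ± 1.40 CPM (0.03, adjusted p = 0.842). Acot8, a peroxisomal acyl-CoA thioesterase, stood at 12.4 ± 1.94 and 16.1 ± 2.76 CPM (0.37, SE 0.159, adjusted p = 0.131) and passed only without knockout replicate 3. Pecr, a peroxisomal enoyl-CoA reductase, was low in all libraries (6.18 ± 0.961 and 4.75 ± 0.737 CPM, -0.37, adjusted p = 0.209). Opposite-strand exons of other genes cover 12.3% of the exon bases of Acot8 (Snx21) and 11.5% of those of Pecr, so both values are uncertain to that extent.

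Pex11a (chr7:79735957-79743131) encodes a membrane protein of peroxisome division and a known PPAR target. Its level was 9.86, 8.74 and 9.21 CPM in WT and 4.59, 4.80 and 5.98 CPM in knockout cells (-0.86, SE 0.164, adjusted p = 0.00279), with no overlap. Of 15 other peroxins, the proteins of peroxisome assembly, 1 rose (Pex5, the import receptor of peroxisomal enzymes, 0.35, adjusted p = 0.0320), 0 fell and 14 did not pass, with a median of -0.08. That is 6.67% higher, where 9.77% of all tested genes were called higher and 9.61% lower. Leaving out replicate 1 or 3 of either genotype removed the call of Pex5 (adjusted p of up to 0.163).

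**Figure D4:**
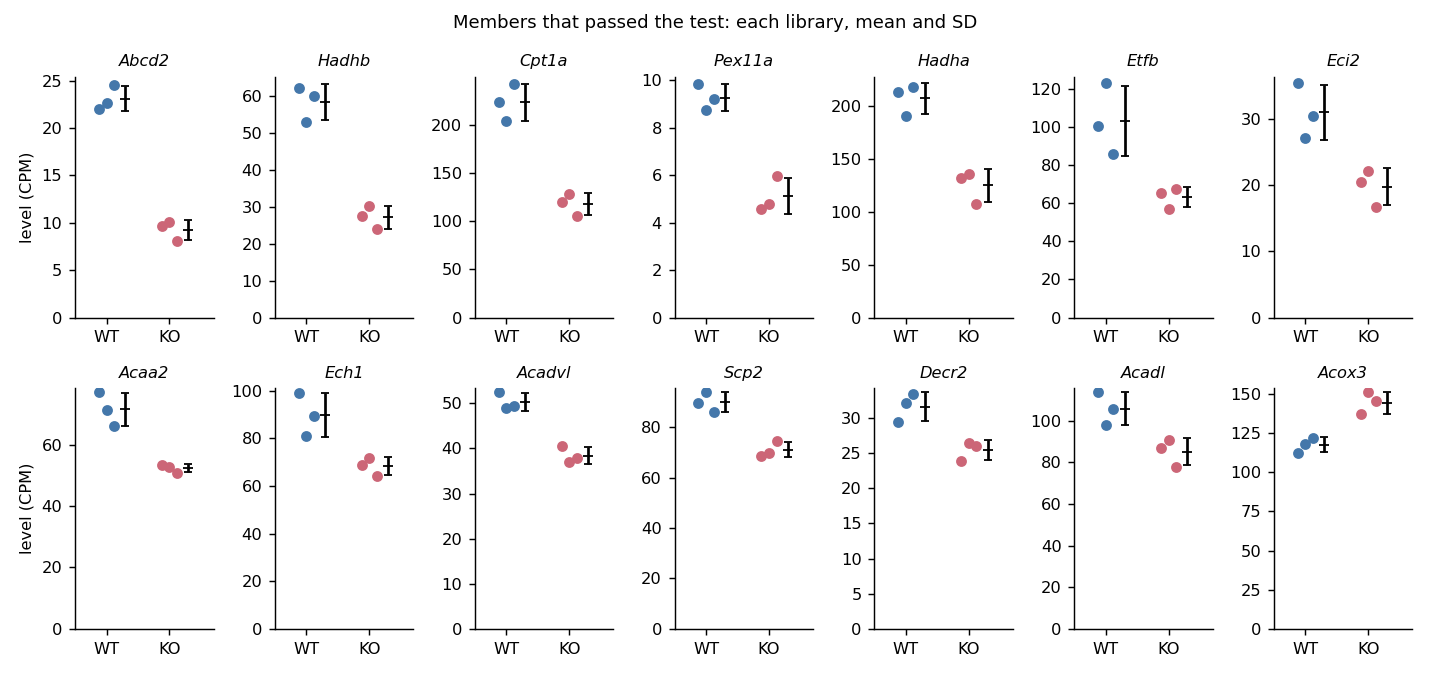
Level in CPM (vertical axis from 0) of the 14 members that passed the test, with each library as a point, WT left and knockout (KO) right, and the mean and SD beside them (n = 3). In the first 13 panels all knockout points lie below all WT points, and in the Acox3 panel they lie above.

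The regulators in the list gave no call. Pdk4, a kinase that switches pyruvate away from oxidation and a PPAR target in other tissues, had 2, 1 and 1 reads in WT replicates 1 to 3 and 4, 0 and 1 reads in the knockout replicates, too few for a test. Ppargc1b, which encodes the coactivator PGC-1 beta, stood at 4.15, 3.13 and 3.72 CPM in WT and 3.72, 3.93 and 4.29 CPM in knockout cells, with overlapping groups (0.11, SE 0.202, adjusted p = 0.756). Of 5 other genes that control pyruvate dehydrogenase, the kinase gene Pdk3 fell (-0.37, adjusted p = 0.0447), 0 rose and 4 did not pass (20% lower, against 9.61% of all tested genes). The fall of Pdk3 held without WT replicate 3 and was lost without each of the other 5 libraries, and with DESeq2.

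Genes of the receptors and other regulators of this programme were mostly short of the threshold. Of 6 tested, Lpin1, which encodes a phosphatidate phosphatase that also acts as a coactivator, fell from 33.1 ± 4.03 to 21.9 ± 1.89 CPM (-0.60, SE 0.118, adjusted p = 0.00343), 0 rose and 5 did not pass, with a median of 0.10. That is 16.7% lower, where 9.61% of all tested genes were called lower. Pparg, which encodes PPAR gamma, stood at 78.8 ± 6.24 and 87.2 ± 1.72 CPM (0.15, adjusted p = 0.260), and Ppard at 21.8 ± 5.04 and 24.4 ± 1.15 CPM (0.14, adjusted p = 0.537). Ppara, at 0.143 ± 0.104 and 0.212 ± 0.334 CPM, and Ppargc1a, at 0.0564 ± 0.0525 and 0.112 ± 0.0976 CPM, were too scarce for the test; these 4 genes were chosen after their values were seen.

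Other genes of the pathway mostly did not pass. Of 21 tested outside the list of members, 2 fell, 19 did not pass and 0 rose, with a median of -0.05. That is 9.52% lower, near the 9.61% of all tested genes, so the share among the members does not extend to these genes. Acot2, a mitochondrial acyl-CoA thioesterase, fell from 18.5 ± 2.93 to 11.1 ± 0.882 CPM (-0.75, SE 0.139, adjusted p = 0.00228), and Hsd17b10, a short-chain and steroid dehydrogenase, fell from 56.1 ± 3.71 to 42.9 ± 0.996 CPM (-0.39, SE 0.0891, adjusted p = 0.00900). The call of Hsd17b10 was lost without WT replicate 1 (adjusted p = 0.0518). The carnitine carrier gene Slc25a20, chosen after its values were seen as a neighbour of Cpt1a and Cpt2 in the pathway, did not pass (-0.09, adjusted p = 0.546). Of 4 tested genes of ketone body metabolism 0 passed (median 0.17).

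General mitochondrial genes (import, pores, chaperones and shape) were counted beside the mitochondrial members. Of 16 tested, 4 fell, 12 did not pass and 0 rose, with a median of -0.14. That is 25% lower, where 9.61% of all tested genes were called lower. Their summed level was 1693 to 1780 CPM in WT and 1603 to 1655 CPM in knockout cells. Phb2, a prohibitin (-0.41, adjusted p = 0.00538), the outer-membrane pore gene Vdac1 (-0.30, adjusted p = 0.0286) and the import channel gene Timm23 (-0.66, adjusted p = 0.0362) fell, as did the chaperone gene Hspd1 (-0.25, adjusted p = 0.0425). The calls of Vdac1 and Timm23 were lost without several single libraries, WT replicate 1 and knockout replicates 1 and 3 among them. Whether the call of Hspd1 holds over the alternatives was not examined. The part of mitochondrial content in the lower mitochondrial members was not tested.

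**Figure D5:**
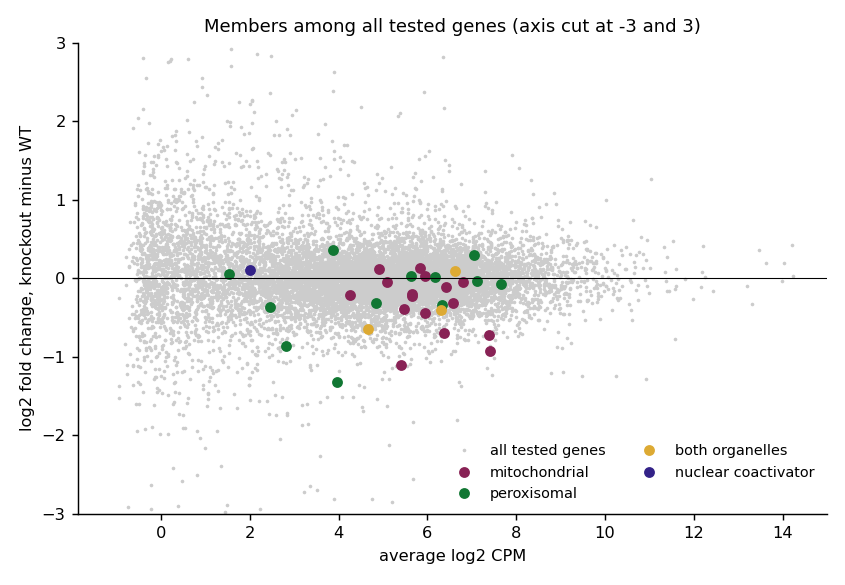
Log2 fold change (vertical axis, cut at -3 and 3, which leaves 34 genes outside) against average log2 CPM for the 12011 tested genes in grey, with the members in colour by compartment. Most members lie at medium to high expression, and 22 of the 32 lie below 0.

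Per kilobase of the longest protein-coding transcript, levels in WT spanned a wide range. Etfb was highest at 115 ± 20.8 CPM per kb, followed by Acaa1a at 80.3 ± 16.2, Hsd17b4 at 76.9 ± 5.87, Ech1 at 70.9 ± 7.24 and Etfa at 64.3 ± 5.03 CPM per kb. Neighbours in this order from Etfb to Etfa differed by less than the sum of their SDs. Cpt1a (51.7 ± 4.44 CPM per kb) and Hadha (51.7 ± 3.59) had indistinguishable levels in WT, and stood at 27.3 ± 2.74 and 31.2 ± 3.94 CPM per kb in the knockout. Hadhb, the partner subunit of Hadha, was at 28.5 ± 2.35 CPM per kb in WT and 13.3 ± 1.53 in the knockout. The lowest members were Abcd2 (4.17 ± 0.239), Pex11a (4.14 ± 0.251), Ppargc1b (1.0 ± 0.14), Ehhadh (0.889 ± 0.285) and Pdk4 (0.0386 ± 0.0204 CPM per kb) in WT. In the knockout Etfb, at 70.7 ± 5.97 CPM per kb, was below the mean of Acaa1a (78.0 ± 8.27) and of Hsd17b4 (73.2 ± 5.54), within the spread of these values.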

How the data were processed

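The authors deposited raw read counts per Ensembl gene and, in a second table, log2 values they normalized, which equal the log2 of the count times 1 constant per library (a count of 0 is listed at 0). Reads were single-end, from libraries made with 100 ng RNA, per the labels' protocols. TopHat2 2.0.7, DESeq and the build mm10 (GRCm38) are named in the submitters' processing notes; how reads were counted, with which annotation and strand setting, is not given in the sources used here. The test of the counts used edgeR 4.0.16 under R 4.3.3: TMM factors, filterByExpr (minimum count 10, total 15), robust quasi-likelihood F test with genotype alone, Benjamini-Hochberg over 12011 genes, threshold 0.05. SEs were taken as the size of the log2 fold change over the root of its F. Symbols were matched by Ensembl ID for 45106 of 45193 genes. Positions and lengths come from GENCODE M21 (GRCm38), promoter sequences from RefSeq (GRCm38.p6). All 33 members are given; each library's value is shown for those past the threshold and for Ppargc1b, Pdk4, Cpt1a, Cpt2, Hadha and Hadhb. Of other lists up to 3 genes in each direction with the smallest adjusted p are named, and the most abundant marker of each cell type list; some genes are not reported here. Members, lists and tests were chosen with earlier results of these data known. The fit was tested on simulated data. Alternatives used DESeq2 1.42.0, limma 3.58.1 (also on the authors' log2 values, turned to the linear scale, pseudocount 1), other factors and filters (CPM of at least 1 in 3 libraries), thinning, a replicate block and leaving out each library. Offsets for annotated exon length and GC content were added after seeing the data.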

Additional observations from a re-analysis of the deposited data

How the results depend on the processing

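Over 16 alternatives, 9 of the 13 members that fell kept their call in every alternative run (Cpt1a, Hadha, Hadhb, Etfb, Acaa2, Acadvl, Eci2, Abcd2 and Pex11a); Acadl, Ech1, Scp2, Decr2 and the rise of Acox3 lost theirs in at least 1. Without any filter the median of all genes moved to 0.123, from -0.00476. Same-numbered libraries did not deviate together (correlations -0.275 to 0.0528). With so few libraries per genotype, this cannot decide whether the numbers pair them. With the replicate number as a block, 0 members rose, 2 peroxisomal members fell and 0 rose, and 666 of all genes fell and 709 rose. With the length and GC offsets 0 members and 0 peroxisomal members rose, and the mitochondrial median was -0.18. With 1 library left out, members that rose numbered 0 to 2, all of them peroxisomal (0 to 2), peroxisomal falls 2 to 3, falls among all genes 619 to 1329 and rises 667 to 1278. The mitochondrial median then lay between -0.30 and -0.20 and the peroxisomal between -0.14 and -0.015. Signs turned for 9 members short of the threshold: Decr1 after thinning (0.051), and Etfa (0.042), Crat (-0.013), Echs1 (-0.089) and Abcd3 (-0.024) with the offsets. With 1 library left out the ranges were -0.026 to 0.064 for Crot, -0.029 to 0.072 for Echs1, -0.15 to 0.13 for Acaa1a, -0.14 to 0.025 for Decr1, -0.15 to 0.21 for Ehhadh, -0.012 to 0.050 for Abcd3, -0.10 to 0.0010 for Acadm, and -1.23 to 0.037 for the stromal marker Col1a1. The cause of these changes was not tested. Pdk4, with 9 reads over all libraries, was below the count filter; Ppargc1b and Ehhadh had 363 and 260 reads.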
